A study of Neurospora crassa with 6 samples.

Results

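Vitamin B6 genes of the filamentous fungus Neurospora crassa, with a neighbouring gene, were followed as 4 of 9691 genes. The cultures were given the protein kinase inhibitor staurosporine or its solvent DMSO in 3 media that differ in calcium. The genes were mig-9 (NCU09141, annotated as pyridoxal reductase), its chromosomal neighbour NCU09140 (a hypothetical protein), pdx-1 (NCU06550, pyridoxine 1) and pdx-2 (NCU06549, pyridoxine 2). The annotation does not tie NCU09140 to vitamin B6. They were chosen by gene ID with their response to staurosporine in these libraries already known. Their staurosporine ratios are therefore given as a description, with no test.

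Poly(A) RNA was sequenced from wild-type conidia, the asexual spores, that had germinated for 6 h at 26 °C and then grown for 1 h more with staurosporine at 20 µM or with DMSO. Both treatments were applied in minimal medium labelled 0 Ca2+, in standard minimal medium and in minimal medium with 20 mM CaCl2, so the 6 groups were staurosporine and DMSO in each of 3 media. Each group has 1 library, so a value within a medium has no replicate error. The study profiled staurosporine-induced cell death at different calcium levels, and all 6 cultures shared the strain, the age and the RNA preparation.

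Levels are the authors' FPKM, read fragments scaled by transcript length and library size, which allows genes of different length to be compared within a library but is relative to the rest of that library. The FPKM of all genes summed to 696047, 500315 and 666121 in the staurosporine libraries of the 0 Ca2+, standard and 20 mM CaCl2 media, against 953522, 940590 and 1001098 in the DMSO libraries. Read counts are not part of the tables, so each library's depth is unknown. In bulk RNA, fewer cells that carry a transcript and less of it per cell cannot be told apart. Ratios are log2((FPKM + 1) ratio), which understates differences of low genes, and folds are plain FPKM ratios. Within a pair of libraries a gene counts as higher or lower when its absolute log2 ratio is at least 1, that is 2-fold.

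The active form of vitamin B6, pyridoxal 5'-phosphate (PLP), is the cofactor of aminotransferases, decarboxylases and many other enzymes of amino acid metabolism. Fungi and plants make it directly from pentose phosphate, triose phosphate and the amide nitrogen of glutamine. The PDX1 subunit assembles the ring and the PDX2 subunit is the glutaminase that supplies the nitrogen. A salvage route with a kinase and an oxidase turns the other forms of the vitamin into PLP, and pyridoxal reductase, an enzyme of the aldo-keto reductase fold described in yeasts, turns pyridoxal into pyridoxine. In N. crassa, pdx-1 and pdx-2 are named for mutants that need pyridoxine.

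The gene annotated as pyridoxal reductase and the synthesis genes lay on opposite sides of the DMSO libraries. With staurosporine mig-9 was 23.6-fold to 80.8-fold higher and NCU09140 15.6-fold to 29.0-fold higher, while pdx-1 was 2.60-fold to 4.28-fold lower and pdx-2 1.87-fold to 2.72-fold lower. For mig-9 and NCU09140 every staurosporine library was above every DMSO library, which holds for 7.5% of the 7415 genes with a mean of at least 1 FPKM. In deposited FPKM, every staurosporine library was below every DMSO library for pdx-1 and pdx-2, as for 14.8% of genes. As a share of the library's FPKM sum this held for pdx-1 but not for pdx-2. All 4 genes passed that minimum. The counts and shares describe the choice of the genes and lend it no support.

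The transcript of mig-9, the pyridoxal reductase gene, stood at 2077, 5090 and 6673 FPKM in the staurosporine libraries of the 0 Ca2+, standard and 20 mM CaCl2 media, against 87.9, 74.5 and 82.5 FPKM in the DMSO libraries of the same media. The staurosporine libraries did not overlap the DMSO libraries, and the 0 Ca2+ library was the lowest of the 3 with the drug. By level mig-9 ranked 81st, 3rd and 5th of all genes with staurosporine, against 1096th, 1197th and 1146th with DMSO. With the drug it held 0.298%, 1.02% and 1.00% of the library's FPKM sum in the 3 media. The transcript of this gene, annotated as pyridoxal reductase, was thus among the most abundant of the fungus in the standard and 20 mM CaCl2 media with staurosporine.

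The log2 ratio of mig-9 was 4.55, 6.08 and 6.32 in the 0 Ca2+, standard and 20 mM CaCl2 media (mean 5.65 ± 0.96, SD over 3 media). Only 13 of 7531, 2 of 7167 and 1 of 7204 genes had a larger ratio in these media. No other gene reached the ratio of mig-9 in all 3 media, and mig-9 and NCU04287, a hypothetical protein, were the 2 genes with a log2 ratio of at least 4 in each.

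NCU09140, the neighbour of mig-9, stood at 54.9, 30.1 and 45.4 FPKM in the staurosporine libraries of the 0 Ca2+, standard and 20 mM CaCl2 media, against 1.89, 1.92 and 2.58 FPKM in the DMSO libraries. It was low in all 3 DMSO libraries, and its highest level was in the 0 Ca2+ medium with staurosporine, where mig-9 had its lowest level with the drug. Its log2 ratio was 4.27, 3.41 and 3.70 (mean 3.79 ± 0.44, SD over 3 media), exceeded by 20, 24 and 5 genes in the 3 media. Because the DMSO levels are near the pseudocount, this ratio moves with it, and the mean was 2.73 with a pseudocount of 5 and 4.26 with one of 0.1. It was one of 6 genes with a log2 ratio of at least 3 in all 3 media.

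The pair did not keep a fixed proportion. The FPKM of mig-9 over that of NCU09140 was 37.8, 169 and 147 in the staurosporine libraries of the 0 Ca2+, standard and 20 mM CaCl2 media, against 46.4, 38.8 and 32.0 in the DMSO libraries. In 0 Ca2+ medium the proportion with the drug was close to that with DMSO, and in the other 2 media mig-9 exceeded its neighbour by several times more with the drug. Their log2 levels had a Pearson r of 0.96 over the 6 libraries, as a description, since 3 libraries have the drug and 3 do not.

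**Figure D1:**
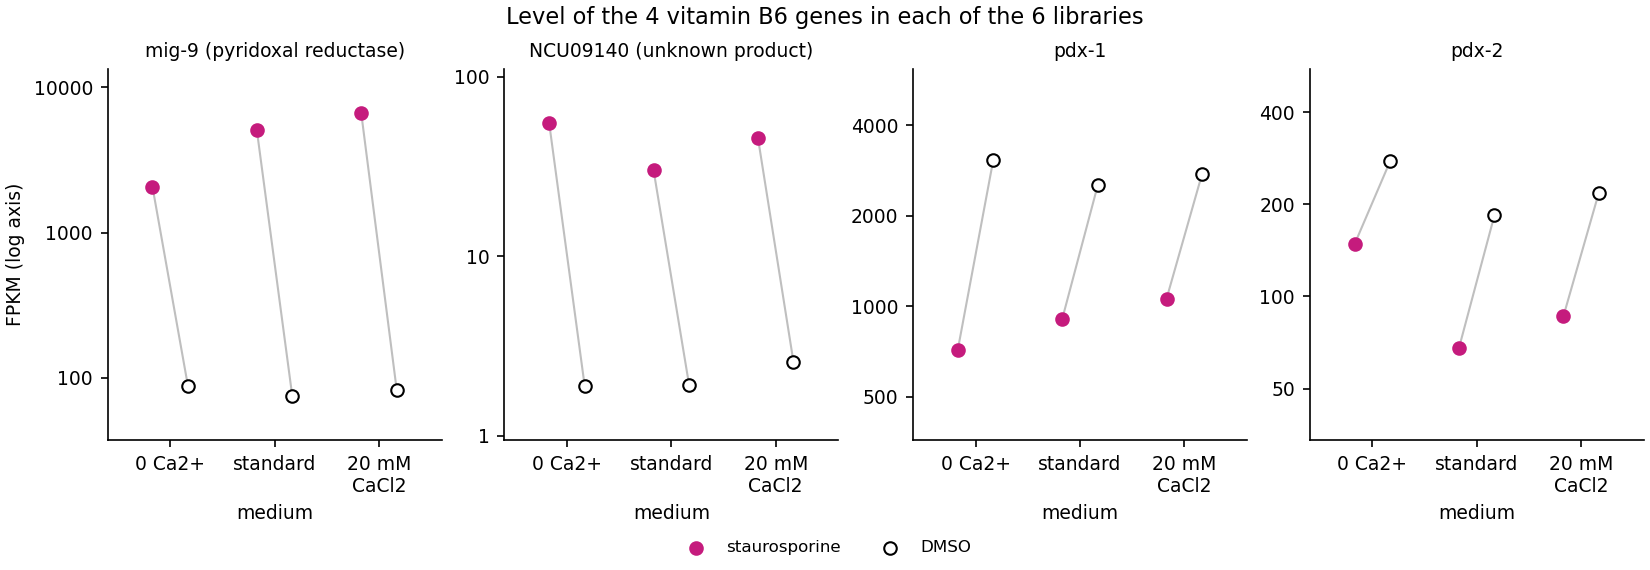
FPKM (log axis) of mig-9, NCU09140, pdx-1 and pdx-2 in each of the 6 libraries, 1 point per library, by medium and treatment. The staurosporine points of mig-9 (2077 to 6673) and NCU09140 (30.1 to 54.9) lie above all their DMSO points, and those of pdx-1 (718 to 1062) and pdx-2 (67.9 to 148) below all theirs.

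The synthase gene pdx-1 stood at 718, 907 and 1062 FPKM in the staurosporine libraries of the 0 Ca2+, standard and 20 mM CaCl2 media, against 3073, 2524 and 2757 FPKM in the DMSO libraries. The log2 ratio was -2.10, -1.47 and -1.38 (mean -1.65 ± 0.39, SD over 3 media), and the groups did not overlap. At these levels pdx-1 was still abundant: it ranked 160th, 101st and 130th of all genes with staurosporine, against 89th, 96th and 93rd with DMSO.

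The glutaminase gene pdx-2 stood at 148, 67.9 and 86.1 FPKM in the staurosporine libraries of the 0 Ca2+, standard and 20 mM CaCl2 media, against 277, 184 and 218 FPKM in the DMSO libraries. Its log2 ratio was -0.89, -1.43 and -1.33 (mean -1.22 ± 0.28, SD over 3 media). The 0 Ca2+ value missed the 2-fold line, and the groups did not overlap in deposited FPKM. As a share of the library's FPKM sum they overlapped. The 0 Ca2+ staurosporine library then held 0.0213%, above the 0.0196% of the standard DMSO library. With either treatment, pdx-2 was highest in the 0 Ca2+ medium.

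The ratios of pdx-1 and pdx-2 were low but not extreme. Their percentiles among all genes were 6.69 and 23.3 in 0 Ca2+ medium, 8.48 and 8.99 in standard medium, and 2.11 and 2.40 in 20 mM CaCl2 medium, where few genes differed between the treatments. By the 2-fold rule, mig-9 and NCU09140 were higher in each medium, beside 18.7%, 13.4% and 2.62% of genes in the 0 Ca2+, standard and 20 mM CaCl2 media. The gene pdx-1 was lower in each medium and pdx-2 in the standard and 20 mM CaCl2 media, beside 20.9%, 14.9% and 6.16% of genes. Over all 3 media 0.472% of genes were higher and 1.12% lower.

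The size of the pdx values rests on the scale. Each library was rescaled to the same FPKM sum. For genes with a mean of at least 10 FPKM, the median shift of the log2 ratio was 0.44, 0.89 and 0.57 in the 0 Ca2+, standard and 20 mM CaCl2 media. On that scale the log2 ratio of pdx-1 was -0.56 in standard and -0.79 in 20 mM CaCl2 medium, and that of pdx-2 was -0.53 and -0.75, so these 4 values kept their direction and missed the 2-fold line. Equal sums gave 2212, 3500 and 940 genes higher and 1041, 367 and 124 lower, against 1409, 958 and 189 higher and 1571, 1071 and 444 lower as deposited. The large ratios of mig-9 and NCU09140 stayed past that line on each scale tried.

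**Figure D2:**
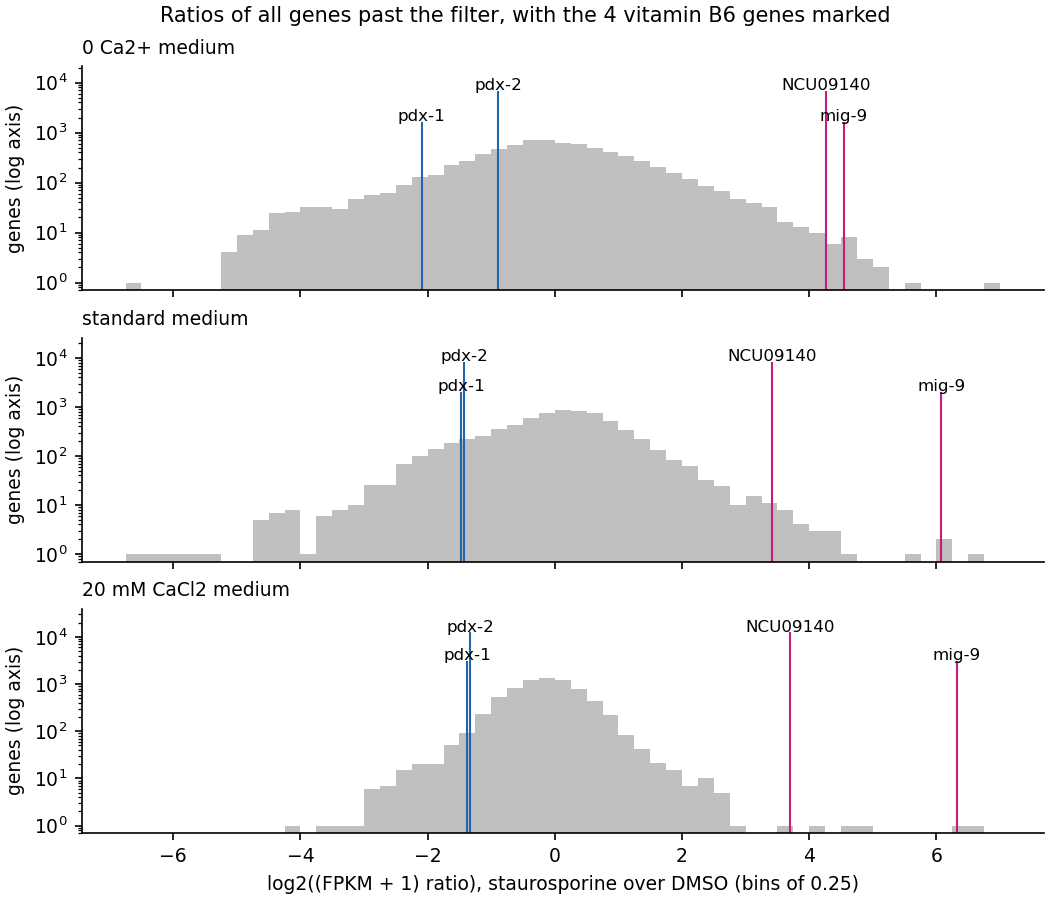
Distribution of the log2((FPKM + 1) ratio) of staurosporine over DMSO for all genes with a mean of at least 1 FPKM, 1 panel per medium, with the 4 genes marked. In each medium mig-9 (4.55, 6.08 and 6.32) and NCU09140 (4.27, 3.41 and 3.70) lie in the far right tail, while pdx-1 and pdx-2 lie left of 0.

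The balance between the reductase transcript and the synthase transcript differed between the treatments in each medium. The FPKM of mig-9 over that of pdx-1 was 2.89, 5.61 and 6.29 in the staurosporine libraries of the 0 Ca2+, standard and 20 mM CaCl2 media, against 0.0286, 0.0295 and 0.0299 in the DMSO libraries. This proportion comes from within a library, so it does not depend on how libraries are scaled. In the DMSO libraries the synthase transcript exceeded the reductase transcript by 34.9, 33.9 and 33.4 times.

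The 2 subunit genes of PLP synthase kept close to their DMSO proportion in the standard and 20 mM CaCl2 media. The FPKM of pdx-1 over that of pdx-2 was 4.84, 13.4 and 12.3 in the staurosporine libraries of the 0 Ca2+, standard and 20 mM CaCl2 media, against 11.1, 13.7 and 12.6 in the DMSO libraries. The 0 Ca2+ staurosporine library stood apart from the other 5, with pdx-1 at its lowest and pdx-2 at its highest level among the staurosporine libraries.

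In the authors' deposited table each of the 4 genes is called significant in all 3 comparisons of staurosporine with DMSO, and none in the 2 comparisons of DMSO libraries between media. Those calls come from single libraries, and the comparisons between media use the same DMSO libraries as the comparisons with staurosporine. The share of all genes so called is not given here, so these counts are no result about the 4 genes in particular.

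Without the drug, the levels of the 4 genes differed little between the media. Over the 3 DMSO libraries the highest level exceeded the lowest by 1.18 times for mig-9, 1.36 times for NCU09140, 1.22 times for pdx-1 and 1.50 times for pdx-2. For mig-9, pdx-1 and pdx-2 the 0 Ca2+ library was the highest of these and the standard library the lowest. With DMSO none of the 4 genes was past the 2-fold rule, beside 2.99% of genes higher and 2.33% lower for 0 Ca2+ over standard medium, 2.12% and 0.801% for 20 mM CaCl2 over standard medium, and 4.63% and 3.54% for 20 mM CaCl2 over 0 Ca2+ medium.

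With staurosporine the spread of the deposited FPKM over the media was wider for each of the 4 genes, and its order differed between them. As a share of the library's FPKM sum, NCU09140 ran from 0.00601% to 0.00788% with the drug and from 0.000199% to 0.000258% with DMSO. Its relative spread was then about alike in both treatments, while that of the other genes stayed wider with the drug. In deposited FPKM the highest level with staurosporine exceeded the lowest by 3.21 times for mig-9, 1.83 times for NCU09140, 1.48 times for pdx-1 and 2.18 times for pdx-2. The gene mig-9 was lowest in 0 Ca2+ medium, with a log2 ratio of -1.29 over standard medium, beside 17.9% of genes lower by 2-fold. The gene pdx-2 was higher there, with a log2 ratio of 1.12 over standard medium, beside 18.6% of genes higher. This last ratio was 0.65, short of 2-fold, when FPKM sums were made equal.

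Added calcium set mig-9 apart by less. Its level in 20 mM CaCl2 medium with staurosporine had a log2 ratio of 0.39 over standard medium and of 1.68 over 0 Ca2+ medium, where 20.5% of genes were higher and 25.1% lower by 2-fold. The same ratios were 0.58 and -0.27 for NCU09140, 0.23 and 0.56 for pdx-1, and 0.34 and -0.78 for pdx-2. None of the 4 genes was 2-fold apart between 20 mM CaCl2 and standard medium with the drug, and with FPKM sums made equal these ratios were -0.02 for mig-9, 0.18 for NCU09140, -0.19 for pdx-1 and -0.07 for pdx-2, so their sign depends on the scale for 3 of the 4. The low level of mig-9 in 0 Ca2+ medium did not: its ratio over standard medium was then -1.77.

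The medium, which played no part in choosing the genes, was tested over both treatments with limma's moderated test, two-sided and adjusted by Benjamini-Hochberg over 7415 genes. None of the 4 genes passed, and no gene did in any of the 3 contrasts (0% called), with 218, 125 and 685 genes at an unadjusted p below 0.05 for 0 Ca2+ over standard, 20 mM CaCl2 over standard and 20 mM CaCl2 over 0 Ca2+ medium. The log2 difference of pdx-2 between 0 Ca2+ and standard medium was 0.85 (SE 0.41), with a limma adjusted p of 0.884, and the adjusted p ranged over 0.833 to 0.913 under the alternatives. It was positive with both treatments. For mig-9 the log2 difference between 20 mM CaCl2 and 0 Ca2+ medium was 0.80 (SE 0.55), with a limma adjusted p of 0.581, and the adjusted p ranged over 0.565 to 0.661 under the alternatives. With the treatments as the 2 repeats this test sees only large differences, and a p that misses the threshold does not show equal levels.

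As deposited, the variation of the drug ratio between media was ordinary for mig-9 and small for the synthesis genes. The range of the 3 log2 ratios was 1.77 for mig-9, 0.86 for NCU09140, 0.72 for pdx-1 and 0.53 for pdx-2, against a median of 1.17 over all genes. Whether the drug ratio itself depends on the medium cannot be tested with 1 library per group.

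The other genes of B6 metabolism did not share the pattern of mig-9. Of 5 further genes with a B6 symbol or product, none passed limma's test of staurosporine over the 3 media, which takes the media as repeats and called 12 of 7415 genes (0.162%), with 1047 at an unadjusted p below 0.05. By the 2-fold rule 2 were higher and 1 lower in 0 Ca2+ medium, 1 was higher and none lower in standard medium, and none was higher and 2 were lower in 20 mM CaCl2 medium. The shares of all genes higher and lower by the same rule were 18.7% and 20.9%, 13.4% and 14.9%, and 2.62% and 6.16%, and with so few genes the counts say little against them. Their median log2 ratio was -0.30, -0.33 and -0.57 in the 3 media, against -0.09, 0.11 and -0.14 over all genes, and 0.15, 0.53 and 0.01 with FPKM sums made equal.

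A second gene annotated as pyridoxal reductase, NCU07402, stood at 59.0, 20.6 and 15.5 FPKM in the staurosporine libraries of the 0 Ca2+, standard and 20 mM CaCl2 media, against 18.3, 16.8 and 20.4 FPKM in the DMSO libraries. Its groups overlapped, and its log2 ratio was 1.64, 0.28 and -0.37, largest in the medium where that of mig-9 was smallest (mean 0.51 ± 1.02, SD over 3 media, limma adjusted p 0.652). In FPKM mig-9 exceeded NCU07402 by 35.2, 247 and 430 times with staurosporine, against 4.80, 4.43 and 4.05 times with DMSO. The authors' deposited table calls NCU07402 significant for staurosporine in 0 Ca2+ medium alone.

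The oxidase step of salvage is covered by 2 genes, since pyridoxamine phosphate oxidase forms PLP from the phosphates of pyridoxine and pyridoxamine. The gene pdx-4 (NCU08269) stood at 105.5, 37.8 and 16.1 FPKM with staurosporine in the 0 Ca2+, standard and 20 mM CaCl2 media, against 144, 69.4 and 77.8 FPKM with DMSO. Its log2 ratio was -0.45, -0.86 and -2.20 (limma adjusted p 0.321). With FPKM sums made equal it was 0.00, 0.04 and -1.64, so only the value with added calcium was below 0 on both scales. The other oxidase gene, NCU05165, stood at 23.7, 11.2 and 3.64 FPKM with staurosporine, against 8.80, 4.97 and 10.001 FPKM with DMSO, with log2 ratios of 1.33, 1.03 and -1.24 (limma adjusted p 0.800). Its ratio had opposite signs in the 0 Ca2+ and 20 mM CaCl2 media, a difference that was not tested. With FPKM sums made equal the ratios were 1.77, 1.90 and -0.77.

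The kinase step showed its largest gap in 0 Ca2+ medium. The pyridoxine kinase gene NCU10351 stood at 9.43, 11.9 and 10.6 FPKM with staurosporine in the 0 Ca2+, standard and 20 mM CaCl2 media, against 26.0, 15.2 and 11.4 FPKM with DMSO. Its staurosporine levels were nearly alike, its DMSO level was highest in 0 Ca2+ medium, and its log2 ratio was -1.37, -0.33 and -0.09 (limma adjusted p 0.530), or -0.96, 0.53 and 0.45 with FPKM sums made equal. The gene pdx-3 (NCU03068), whose product is annotated as glycerol-3-phosphate phosphatase 1, stood at 114, 74.4 and 64.8 FPKM with staurosporine, against 140.2, 113 and 96.4 FPKM with DMSO. Its log2 ratios were -0.30, -0.59 and -0.57 (limma adjusted p 0.537), and with FPKM sums made equal 0.15, 0.31 and 0.01, so their sign depends on the scale.

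**Figure D3:**
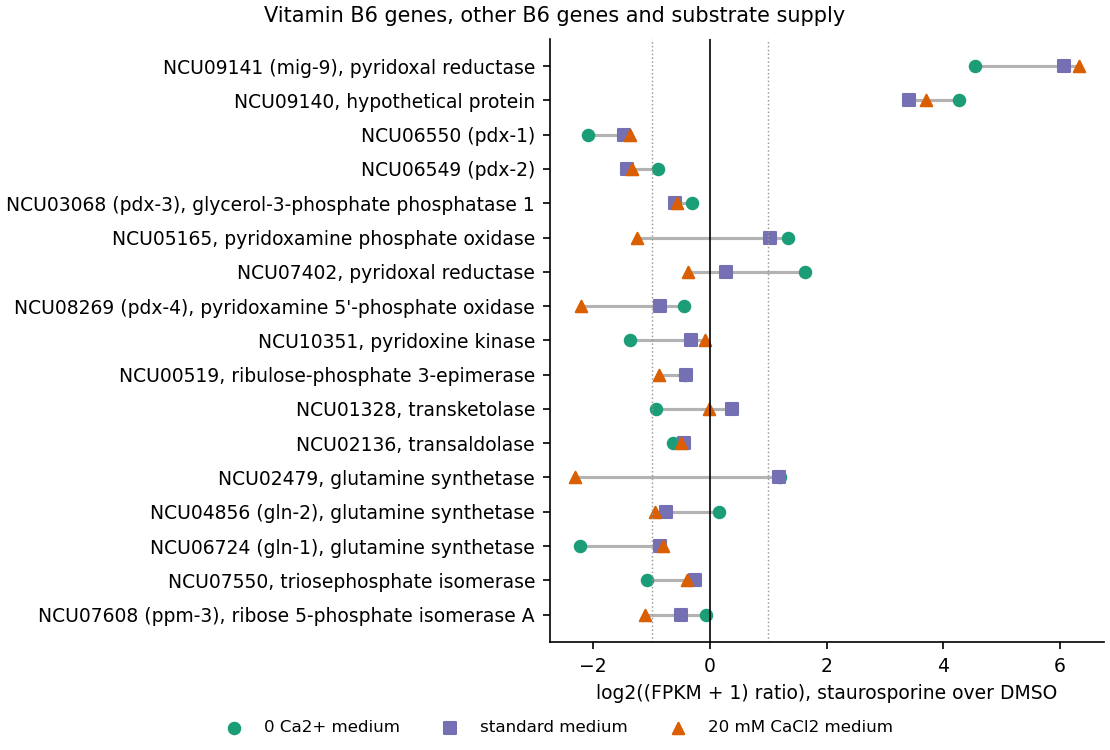
Log2((FPKM + 1) ratio) of staurosporine over DMSO for mig-9, NCU09140, pdx-1, pdx-2, the 5 other B6 genes and the 8 genes of substrate supply, 1 point per medium with dotted lines at 2-fold. The points of mig-9 (4.55 to 6.32) and NCU09140 (3.41 to 4.27) lie far to the right of all the others, which run between -2.32 and 1.64.

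Without the drug, most of the 4 genes and the other 5 were somewhat higher in 0 Ca2+ than in standard medium. In DMSO libraries the log2 ratio of 0 Ca2+ over standard medium was above 0 for 8 of these 9 genes, the 4 and the other 5 together, as for 64.2% of all genes, with a median of 0.31 against 0.12 over all genes. It was 1.05 for pdx-4, 0.74 for the kinase gene NCU10351, 0.71 for NCU05165, 0.58 for pdx-2 and 0.28 for pdx-1. The rest had 0.31 (pdx-3), 0.24 (mig-9), 0.12 (NCU07402) and -0.01 (NCU09140). Of these, pdx-4 alone was past the 2-fold rule, and it alone is called significant in that comparison in the authors' deposited table. With 9 genes and 1 library per medium, the count says little against the 64.2% of all genes.

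Genes that supply the substrates of PDX1 and PDX2 mostly had ratios below those of genes at large. The list held the glutamine synthetases and the enzymes that interconvert pentose and triose phosphates, and 8 of its 10 genes passed the minimum level. None of the 8 passed limma's test, and 6, 6 and 8 of them had a log2 ratio below 0 in the 0 Ca2+, standard and 20 mM CaCl2 media. Among all genes 46.7%, 54.8% and 39.6% had a ratio above 0. By the 2-fold rule 1 was higher and 2 were lower in 0 Ca2+ medium, 1 was higher and none lower in standard medium, and none was higher and 2 were lower in 20 mM CaCl2 medium. The shares of all genes were 18.7% and 20.9%, 13.4% and 14.9%, and 2.62% and 6.16%, and 8 genes say little against them. The list's median was -0.53, -0.43 and -0.84, against -0.09, 0.11 and -0.14 over all genes. With FPKM sums made equal it was 0.02, 0.48 and -0.26, against 0.34, 0.93 and 0.39 over all genes, so its sign depends on the scale and its place below the median of all genes does not on these 2 scales.

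Among them, gln-1, a glutamine synthetase gene whose product feeds the PDX2 glutaminase, stood at 295, 682 and 667 FPKM with staurosporine in the 0 Ca2+, standard and 20 mM CaCl2 media, against 1392, 1231 and 1163 FPKM with DMSO. In deposited FPKM its staurosporine libraries were all below its DMSO libraries, as for 14.8% of genes. Its log2 ratio was -2.23, -0.85 and -0.80, or -1.78, 0.06 and -0.21 with FPKM sums made equal. With the standard value above 0, the groups overlapped on that scale. The ribose 5-phosphate isomerase gene ppm-3 had log2 ratios of -0.07, -0.50 and -1.12, and the triosephosphate isomerase gene NCU07550 of -1.09, -0.26 and -0.40. A further glutamine synthetase gene, NCU02479, had 1.20, 1.18 and -2.32.

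The genes for enzymes that use the cofactor also had a median ratio below that of all genes. Of 55 genes annotated as PLP-dependent enzymes, 51 passed the minimum level over the 6 libraries, and none of these passed limma's test. In 0 Ca2+ medium 8 were higher and 18 lower of 53, in standard medium 6 and 11 of 51, and in 20 mM CaCl2 medium 2 and 14 of 51, beside 18.7% and 20.9%, 13.4% and 14.9%, and 2.62% and 6.16% of all genes. With FPKM sums made equal the counts were 10 and 11, 16 and 1, and 7 and 4, so which direction prevailed in the standard and 20 mM CaCl2 media depends on the scale. The list's median log2 ratio was -0.31, -0.37 and -0.63, against -0.09, 0.11 and -0.14 over all genes. On equal sums it was 0.14, 0.53 and -0.09, again below the medians of all genes. Without the 20 mM CaCl2 libraries 5 of 51 genes of the list passed the test (9.8%), near the 7.77% of all genes.

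The members of that list with the largest mean ratios went in both directions. The 1-aminocyclopropane-1-carboxylate deaminase gene NCU04657 stood at 44.1, 34.7 and 10.3 FPKM with staurosporine in the 0 Ca2+, standard and 20 mM CaCl2 media, against 6.19, 3.45 and 3.31 FPKM with DMSO (limma adjusted p 0.258). A glutamate decarboxylase gene, NCU06803, whose enzyme makes 4-aminobutyrate, had a mean log2 ratio of 1.92 (SE 0.39) at levels of at most 5.20 FPKM. The aspartate aminotransferase gene NCU02543 had log2 ratios of 2.92, 1.92 and -0.55, and the aminotransferase gene NCU03500 had -3.17, -1.98 and -0.22. For NCU02543 and NCU03500 the ratio was largest in size in 0 Ca2+ medium and smallest in 20 mM CaCl2 medium.

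Other members of the aldo-keto reductase family had a median above 0 in the 0 Ca2+ and standard media on both scales. Of 9 genes with such a product, with NCU07402 among them and mig-9 left out, 6 were higher and 1 lower in 0 Ca2+ medium, 4 higher and 1 lower of 8 in standard medium, and 1 higher and 2 lower of 8 in 20 mM CaCl2 medium, beside 18.7% and 20.9%, 13.4% and 14.9%, and 2.62% and 6.16% of all genes. Equal sums gave 6 and 1, 5 and 0, and 2 and 0. Their median log2 ratio was 1.64, 0.87 and -0.22 (2.09, 1.76 and 0.34 with FPKM sums made equal), and none of 8 passed limma's test. Without the 20 mM CaCl2 libraries 4 of 8 passed, beside 7.77% of all genes.

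The gene NCU02887, annotated as the beta-2 subunit of a voltage-gated potassium channel, kept a ratio of at least 2-fold in all 3 media, as mig-9 did. It stood at 917, 662 and 654 FPKM with staurosporine in the 0 Ca2+, standard and 20 mM CaCl2 media, against 124, 102 and 138 FPKM with DMSO. Its staurosporine libraries were all above its DMSO libraries, as for 7.5% of genes. Its mean log2 ratio was 2.60 (SE 0.34), positive in 3 of 3 media, with a limma adjusted p of 0.0750, and 0.00427 to 1.00 under the alternatives. The norsolorinic acid reductase gene NCU07723 had log2 ratios of 4.37, 3.59 and 0.24, close to mig-9 in 0 Ca2+ medium and far below it in 20 mM CaCl2 medium. The xylose reductase gene xr had a mean of 1.48 (SE 0.45), and the aryl-alcohol dehydrogenase gene NCU09798 of -1.25 (SE 0.49).

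**Figure D4:**
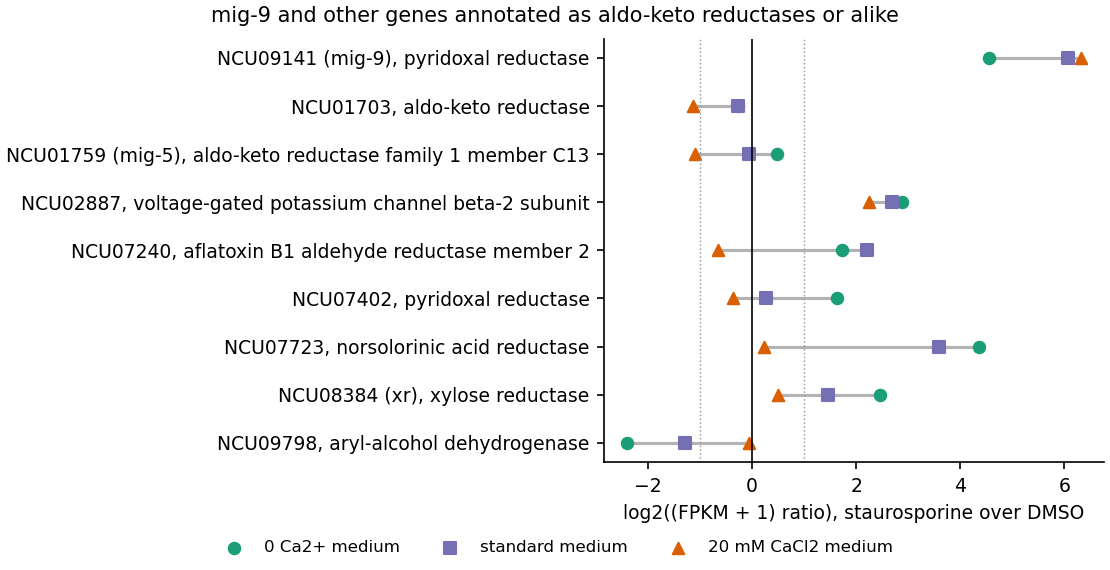
Log2((FPKM + 1) ratio) of staurosporine over DMSO for mig-9 and the 8 other genes with an aldo-keto reductase product that passed the minimum level, 1 point per medium with dotted lines at 2-fold. In 20 mM CaCl2 medium mig-9 (6.32) and NCU02887 (2.24) lie above 1, while NCU07723 (0.24) lies near 0.

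The neighbours of NCU09140 and mig-9 did not reach the ratios of the pair. In the RefSeq gene order, 5 genes on each side of NCU09140 and mig-9 gave 2 higher and 2 lower of 10 in 0 Ca2+ medium, and 1 higher and 1 lower in each of the standard and 20 mM CaCl2 media (3 and 2, 4 and 0, and 3 and 1 with FPKM sums made equal), with none past limma's test. As deposited, the shares of all genes higher and lower were 18.7% and 20.9%, 13.4% and 14.9%, and 2.62% and 6.16%. With 10 genes the counts say little against these shares. The next gene beyond mig-9, ro-6, which encodes a dynein intermediate chain, had log2 ratios of -0.20, -0.26 and -0.35. The next beyond NCU09140, the tubulin-specific chaperone gene NCU09139, had -0.99, 0.47 and 0.17. The peroxisomal dehydratase gene NCU09138, a place further, had 1.70, 1.34 and 0.91, below both genes of the pair in each medium. With FPKM sums made equal it had 2.15, 2.25 and 1.49, past 2-fold in each medium. Its staurosporine libraries were all above its DMSO libraries, as for 7.5% of genes.

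Around pdx-2 and pdx-1, which are next to each other, 4 neighbours were higher and none lower of 9 in 0 Ca2+ medium, 1 higher and 1 lower of 8 in standard medium, and none of 7 in 20 mM CaCl2 medium. All genes gave 18.7% higher and 20.9% lower in 0 Ca2+ medium, 13.4% and 14.9% in standard medium, and 2.62% and 6.16% in 20 mM CaCl2 medium. Equal sums gave 4 and 0, 5 and 1, and 0 and 0 of these neighbours. The hypothetical gene NCU06551, which follows pdx-1, stood at 102, 12.0 and 12.8 FPKM with staurosporine in the 0 Ca2+, standard and 20 mM CaCl2 media, against 12.7, 8.55 and 11.7 FPKM with DMSO. Its log2 ratio was 2.91, 0.45 and 0.12, larger in size than that of pdx-1 in 0 Ca2+ medium and opposite in sign in each. In standard medium NCU06553 had -1.94, below pdx-1. None of the neighbours passed limma's test. The tables do not say whether reads were counted by strand, so reads of overlapping neighbours cannot be told apart.

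**Figure D5:**
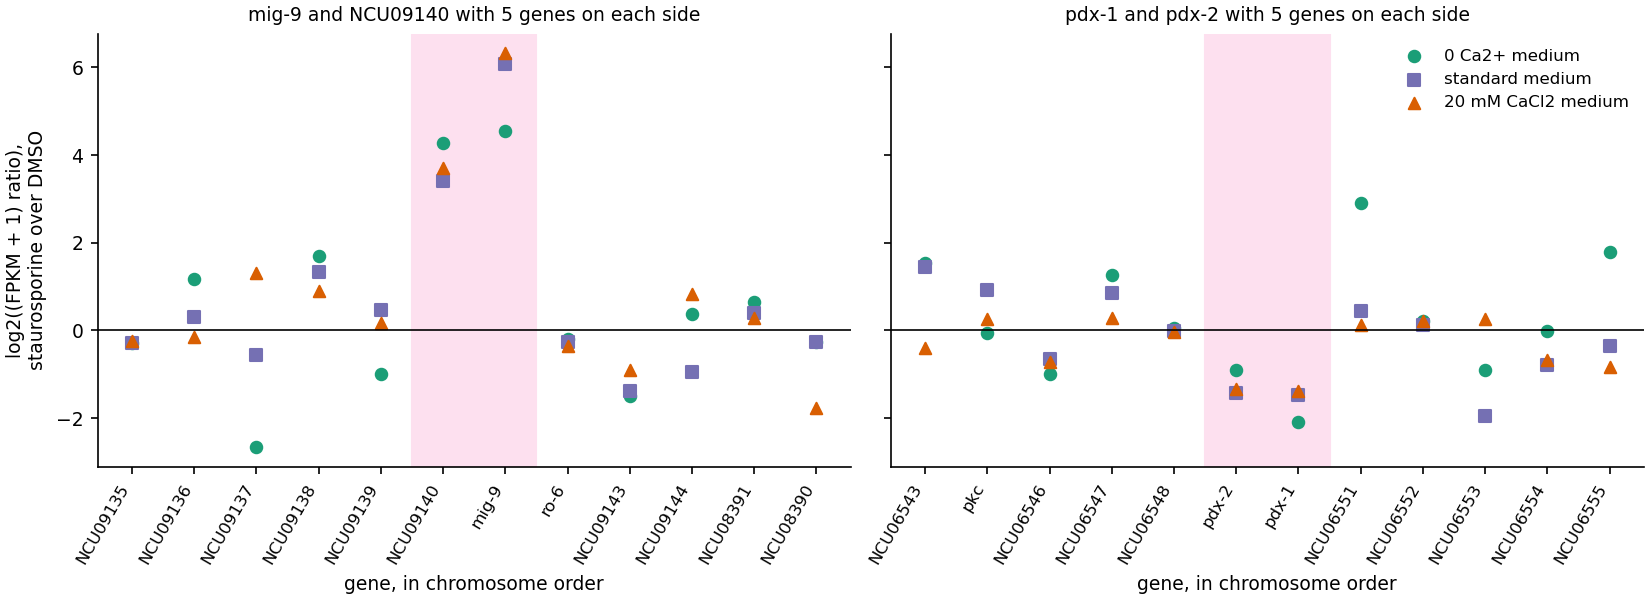
Log2((FPKM + 1) ratio) of staurosporine over DMSO for mig-9 with NCU09140 and for pdx-2 with pdx-1, each with 5 neighbouring genes on either side in RefSeq order, 1 point per medium. The points of mig-9 and NCU09140 lie between 3.41 and 6.32 and those of their neighbours between -2.66 and 1.70.

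Levels across the 6 libraries were nearest to those of mig-9 in NCU09974, a fungal-specific transcription factor gene (Pearson r 0.996), NCU09975, annotated as multidrug resistance protein 3 (0.995), and NCU02915 (0.987). For NCU09140 they were NCU04545 (0.998), NCU02887 (0.993) and NCU03271 (0.992). For pdx-1 they were NCU01844 (0.996), the mitochondrial folate carrier gene NCU04180 (0.996) and the plasma membrane iron permease gene NCU03497 (0.995). For pdx-2 they were NCU01891 (0.995), NCU03997 (0.994) and NCU00147 (0.993). These values describe 6 libraries that fall into 3 with and 3 without the drug. Pearson r compares the pattern and not its size. The log2 staurosporine ratio of NCU04545 was 0.73, 0.58 and 0.67 in the 0 Ca2+, standard and 20 mM CaCl2 media. That of NCU03271 was 0.86, 0.71 and 0.78, against 4.27, 3.41 and 3.70 for NCU09140. Spearman's rho was also tried, but genes can tie by it over 6 libraries, so it does not settle which are nearest. NCU01844 and NCU04180 had the same order of libraries as pdx-1, and NCU01891 the same order as pdx-2. The gene NCU09975 stood at 158, 699.9 and 593 FPKM with staurosporine in the 0 Ca2+, standard and 20 mM CaCl2 media, against 9.31, 5.95 and 5.55 FPKM with DMSO, and shared with mig-9 its lowest drug level in 0 Ca2+ medium.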

How the data were processed

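The deposited data are 5 tables, 1 for each comparison of 2 libraries, with 9691 genes each and the authors' FPKM of both libraries, per the file headers. Poly(A) RNA was sequenced as 50 bp single reads, per the labels' protocols. The submitters' processing notes name TopHat2 2.0.4 and Cufflinks 2.0.2, with Cuffdiff, as the tools used. Their genome build is not given in the sources used here, so no coordinates are reported. Where tables repeat a library, its FPKM differed between them for 0 genes. Depth is unknown, and FPKM carries no count, so no counting interval is given.

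Column names gave the groups. Gene names, products and gene order came from the tables and from RefSeq assembly NC12, matched by locus tag for 9141 genes; 66 IDs name 2 or more loci. Ratios were log2((FPKM + 1) ratio) for genes with a mean of at least 1 FPKM. The 3 media served as repeats for the drug and the 2 treatments as repeats for the medium, in limma 3.58.1 (R 4.3.3, moderated with a mean trend, adjusted p below 0.05 and at least 2-fold), tested on simulated data. Nothing shows separate cultures behind such repeats, so p-values measure only the spread between these libraries. Tables and figures were made in Python 3.11.15 (matplotlib 3.10.9, numpy 2.4.6, pandas 2.3.3).

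The genes, lists and tests were chosen with earlier results of these data known. Lists came from product names, and that of PLP-dependent enzymes includes an ornithine decarboxylase antizyme gene matched by its name. Genes named are the 4 genes, the short lists and neighbours, up to 4 genes of each longer list with the largest absolute mean ratio, and the 3 genes nearest to each of the 4 by Pearson r. NCU04287 was named after its values were seen. As alternatives, the pseudocount was set to 0.1 or 5, and the rest were no filter, a mean of at least 10 FPKM, ratios centred on the median, FPKM sums made equal (1000000), the authors' testable genes, an unpaired fit, no minimum fold, leaving out 1 medium and, for likeness, Spearman's rho. A planned search of promoters for motifs was not run and sequences were not used here.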

Additional observations from a re-analysis of the deposited data

Results flagged for a closer look

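The staurosporine log2 ratio of 3 genes had opposite signs in the 0 Ca2+ and 20 mM CaCl2 media, past 2-fold in both, with 1 library per group. These differences were not tested. The pyridoxamine phosphate oxidase gene NCU05165 had 1.33 in 0 Ca2+ medium and -1.24 in 20 mM CaCl2 medium, which was -0.77, short of 2-fold, with FPKM sums made equal. The glutamine synthetase gene NCU02479 had 1.20 in 0 Ca2+ medium and -2.32 in 20 mM CaCl2 medium. NCU09137, a hypothetical gene near NCU09140, went the other way, with -2.66 in 0 Ca2+ medium and 1.30 in 20 mM CaCl2 medium.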

How the results depend on the processing

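The labels give no replicate numbers, so no fit had a replicate block; the drug ratios were taken within each medium. With FPKM sums made equal, pdx-1 had a log2 ratio of -0.56 in standard and -0.79 in 20 mM CaCl2 medium and pdx-2 of -0.53 and -0.75, and the means over the media were 4.45 for NCU09140, -0.999 for pdx-1 and -0.57 for pdx-2. The mean of NCU09140 was 4.26 with a pseudocount of 0.1 and 2.73 with one of 5, where its medium difference of 20 mM CaCl2 over 0 Ca2+ reversed to -0.056. That of pdx-1 for 20 mM CaCl2 over standard medium reversed to -0.074 with equal sums. Leaving out 1 medium gave means of 5.31 to 6.20 for mig-9, 3.55 to 3.98 for NCU09140, -1.79 to -1.43 for pdx-1 and -1.38 to -1.11 for pdx-2.

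Over all genes, limma called 6 higher and 6 lower with staurosporine over the media. It called 1 lower with a pseudocount of 0.1, 0 higher and 0 lower with a pseudocount of 5, without a filter or with centred ratios, and 19 higher with equal sums. Leaving out 1 medium gave 0 to 192 higher and 0 to 384 lower: 0 and 0 without the standard pair, 14 and 18 without the 0 Ca2+ pair, and 192 and 384 without the 20 mM CaCl2 pair. For 20 mM CaCl2 over 0 Ca2+ medium it called 1 gene at a mean of at least 10 FPKM and 2 with equal sums. Counts for the lists were 0 except without the 20 mM CaCl2 pair (5 PLP-dependent, 4 aldo-keto reductase and 2 other vitamin genes, beside 576 of 7415 genes), with equal sums (1 PLP-dependent and 1 aldo-keto reductase gene) and in the unpaired fit (1 aldo-keto reductase gene). The nearest genes of mig-9 kept 0 of 3 and those of NCU09140 1 of 3 without the 0 Ca2+ staurosporine library. Where no setting is named, the cause was not tested. Low values and unknown depth limit NCU09140 and NCU06803 most.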

Other observations

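Genes for other vitamins and cofactors were described beside those for B6. Of 36 genes with such a product 34 passed the minimum level, and none passed limma's test of staurosporine over the media. In 0 Ca2+ medium 3 were higher and 5 lower by 2-fold, in standard medium 3 and 7, and in 20 mM CaCl2 medium 0 and 7, beside 18.7% and 20.9%, 13.4% and 14.9%, and 2.62% and 6.16% of all genes. With FPKM sums made equal the counts were 6 and 4, 13 and 0, and 0 and 0, so the balance depends on the scale. As deposited the list had medians of -0.13, -0.13 and -0.57, and on equal sums 0.32, 0.75 and -0.05. The gene NCU06110, annotated as the thiazole biosynthetic enzyme of thiamine synthesis, stood at 6016, 6919 and 5912 FPKM with staurosporine in the 0 Ca2+, standard and 20 mM CaCl2 media, against 14958, 11803 and 14660 FPKM with DMSO. In deposited FPKM its staurosporine libraries were all below its DMSO libraries, as for 14.8% of genes. Its mean log2 ratio was -1.13 (SE 0.36, limma adjusted p 0.292). On equal sums the values were -0.86, 0.14 and -0.72 in the 3 media, and with the standard value above 0 the groups overlapped. The thiamine pyrophosphokinase gene NCU08029 had log2 ratios of -2.79, -1.33 and -0.66, and the mitochondrial thiamine pyrophosphate carrier gene NCU07384 had -2.04, -1.55 and -0.40. The GTP cyclohydrolase II gene rib-3, of riboflavin synthesis, had 2.78, 2.32 and -0.88.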
